A study of Mus musculus with 18 samples.

Results

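Oligodendrocyte precursor cells (OPC) of the mouse hippocampus (Hip) and prefrontal cortex (PFC) were described from single-nucleus RNA sequencing of 9 Kun Ming mice, an outbred strain, at 8 weeks of age. A nucleus was taken as OPC when unique molecular identifiers (UMIs, each counting 1 captured RNA molecule) of Pdgfra, Cspg4, Lhfpl3 and C1ql1 summed to at least 4, when that sum was at least 2 times the UMIs of 11 genes of other cell types (Slc17a7, Gad1, Gad2, Mog, Mag, Aqp4, Gja1, Csf1r, Inpp5d, Flt1 and Slc6a13), and when Pdgfra or Cspg4 had at least 1 UMI. Of 138000 nuclei with at least 200 genes and at most 10% mitochondrial UMIs, 3090 (2.24%) met the rule, 1883 of 71398 in the Hip and 1207 of 66602 in the PFC. The study asked how gut microbes bear on the cells of both regions. Its 3 groups had 3 mice each: germ-free mice (GF), specific pathogen free mice (SPF), and colonized germ-free mice (CGF), which were GF mice moved at 4 weeks of age into a cage with an SPF mouse for 4 weeks. Both regions came from the same 9 mice, giving 18 libraries. GF and CGF mice lived in isolators and SPF mice were raised elsewhere, and neither sex nor a transgene was stated. Where CGF animals shared cages, 4 of them lived with 1 SPF mouse, so the CGF libraries need not be independent of each other.

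OPC are the dividing glial cells of the adult brain that give rise to myelinating oligodendrocytes. They respond to platelet-derived growth factor through the receptor encoded by Pdgfra, carry the proteoglycan NG2, encoded by Cspg4, and receive synapses from neurons through glutamate and GABA-A receptors. Their identity rests on the transcription factors Olig1, Olig2 and Sox10, and cells that leave the cycle to differentiate pass through a committed stage marked by Gpr17, Bmp4 and Neu4 before they make myelin.

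The libraries were not alike in depth. The 9 Hip libraries held 49067853 to 63217083 UMIs and the GF PFC libraries 59126586 to 71463928, whereas the SPF and CGF PFC libraries held 20336250 to 26949210. An OPC nucleus had a median of 2920 to 3130 UMIs in the GF Hip, 3460 to 4590 in the SPF and CGF Hip, 3130 to 3720 in the GF PFC and 1270 to 1590 in the SPF and CGF PFC. In those last 6 libraries Gm42418, a transcript that overlaps ribosomal RNA, had at least 1 UMI in every OPC nucleus thinned to 1000 UMIs, and mitochondrial UMIs made up 1.34 to 2.92% of OPC UMIs against 0.413 to 0.641% in the GF PFC. These libraries therefore stand apart from the rest, and in the PFC this cannot be told apart from the difference between GF mice and the others. The GF Hip libraries stood apart as well, though by less: filtering removed 189 to 237 of their barcodes against 17 to 60 in the SPF and CGF Hip, and mitochondrial UMIs made up 0.453 to 0.879% of UMIs in their other nuclei against 0.068 to 0.429%. The part of this in the Hip differences was not tested. Any 2 libraries shared 6 to 29 barcodes, at most 0.362% of the smaller library, and 1 pair of libraries shared the barcode of an OPC nucleus.

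The label was checked with genes that the rule did not use, against 400 nuclei per library that met neither the OPC rule nor the like rules for astrocytes and mature oligodendrocytes. In nuclei thinned to 1000 UMIs, Ptprz1, a receptor phosphatase of the precursor surface, was detected in 73.7 to 85.9% of OPC nuclei of the Hip libraries and in 9.5 to 20.8% of other nuclei. Sox6, a transcription factor of precursors, was detected in 60.2 to 84% against 2.75 to 10.8%. Vcan, which encodes the proteoglycan versican, reached 43.3 to 54.5% against 0.25 to 1.75%.

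Lineage transcription factors gave fewer nuclei with a UMI but the same order. Sox10 was seen in 12.9 to 34.9% of Hip OPC nuclei against at most 1.5% of other nuclei, and Olig1 in 3.88 to 16.8% against at most 2.25%. By contrast the myelin gene Mbp was seen in 4.85 to 13.3% of OPC nuclei, no more than the 6.25 to 15.8% of other nuclei, and is read here as background. The choroid plexus transcript Ttr followed the library in the same way, from 0.559 to 95.2% of Hip OPC nuclei and 0.25 to 87.8% of other nuclei. In the PFC, Ptprz1 was detected in 68.8 to 84.6% of OPC nuclei, Sox6 in 62 to 84.6% and Sox10 in 6.25 to 37.2%. All 9 libraries of each region thus held OPC nuclei that carried markers outside the rule.

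**Figure D1:**
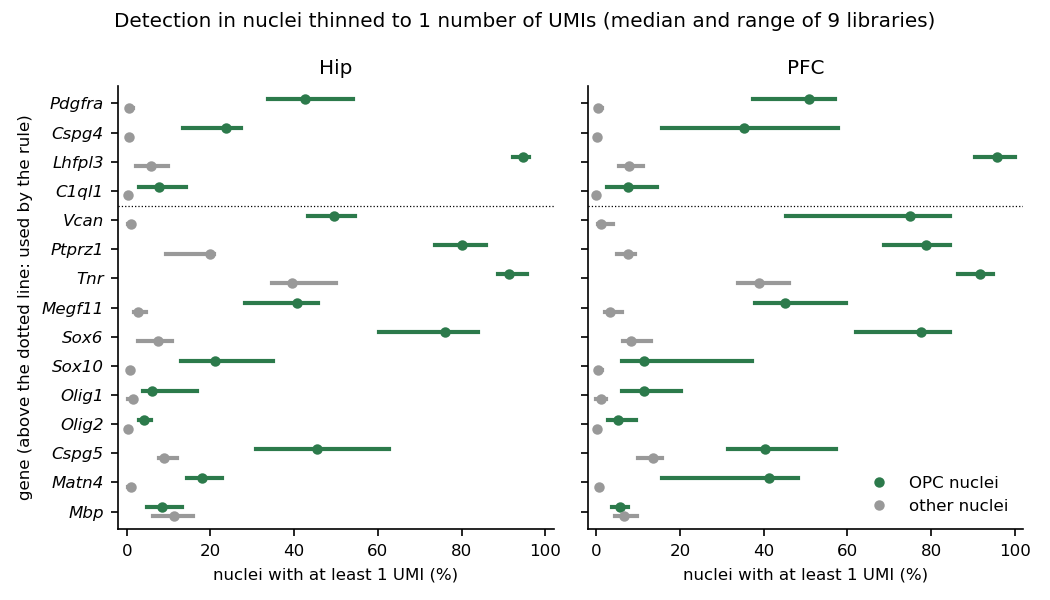
Percent of nuclei with at least 1 UMI of each gene (x axis) after thinning every nucleus to 1000 UMIs, for OPC nuclei (green) and other nuclei (grey) of the Hip and the PFC; dots are the median and lines the range of 9 libraries, and genes above the dotted line were used to choose the nuclei. The other nuclei met neither the OPC rule nor the like rules for astrocytes and mature oligodendrocytes, so separation from those glia is not shown. Genes such as Ptprz1 and Sox6 separate OPC nuclei from these other nuclei without having been used, while Mbp overlaps between both.

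At the edge of the rule, 121 OPC nuclei had exactly 4 UMIs of the 4 marker genes, and 228 and 117 nuclei that met every other condition had 2 and 3. A further 2743 nuclei passed on the marker sum and on the other-type genes but had no UMI of Pdgfra or Cspg4, and 280 were left out because of the other-type genes alone. No OPC nucleus was removed as a doublet. Nuclei with more than 2 times the median UMIs of their library's OPC numbered 428, nuclei without any other-type UMI numbered 1012, and results without the former and with the latter alone are given where they change a value. Summed UMIs of the 20 matrix and surface genes outside the rule were 3.65 to 4.71 times as abundant in OPC as in other nuclei of the Hip and 3.14 to 5.16 times in the PFC. The 12 neuron markers stood at 0.433 to 0.604 of the other nuclei in the Hip and 0.39 to 0.631 in the PFC, so OPC sums hold RNA of neuron marker genes. In CPM, a gene's UMIs scaled to a common total per library, that level was 12200 to 12700 in the GF libraries of the Hip, which lay within the 10200 to 14900 of the SPF libraries and the 11000 to 13300 of the CGF libraries. In the PFC all GF libraries, at 14000 to 15400 CPM, were above the SPF libraries at 8710 to 12700 and the CGF libraries at 10200 to 11700, and values with nuclei left out are given beside the PFC differences. Astrocyte markers outside the rule, 12 genes, were 1.67 to 2.62 times as abundant in OPC as in other nuclei of the Hip. Their summed level was 3240 to 4090 CPM in GF Hip OPC, below the 4310 to 5750 CPM of every SPF library and overlapping the 3930 to 5110 CPM of CGF libraries, and their part in the Hip differences was not tested.

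The share of nuclei that were OPC was compared between groups. In the Hip it was 2.2, 1.91 and 2.17% in the GF mice, 3.89, 2.79 and 2.57% in the SPF mice and 3.02, 2.67 and 2.88% in the CGF mice. Every GF share was thus below every share of the other groups, while the SPF and CGF shares overlapped. The difference of GF from SPF means was -0.992 percentage points, and -0.589 without mouse SPF 30. With all mice, an exact two-sided permutation test over the 3 groups gave p = 0.0464, 0.133 after adjustment over 8 tests. With libraries thinned to a common mean of UMIs per nucleus, which left median OPC UMIs of 2548 to 2991, the Hip shares became 1.97, 1.91 and 2.13% in GF, 3.43, 2.43 and 2.26% in SPF and 2.63, 2.48 and 2.65% in CGF mice (exact permutation p = 0.1 over the 3 groups). With all 18 libraries thinned to the lowest mean of both regions, an alternative chosen after seeing the data, GF mice had 1.5, 1.48 and 1.67%, SPF mice 2.47, 1.9 and 1.62% and CGF mice 1.77, 1.62 and 1.9%, so that the groups overlapped (exact permutation p = 0.161). Counted only among OPC, astrocytes and mature oligodendrocytes, OPC made up 20, 16.6 and 21.2% of GF, 28.2, 23.8 and 23% of SPF and 21.6, 22.4 and 30.5% of CGF nuclei (exact permutation p = 0.179). For OPC without any UMI of the 11 genes of other cell types the GF minus SPF difference in the share turned sign, to 0.222 percentage points. With 3 mice against 3 the smallest p of an exact test is 0.1.

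The PFC showed the opposite order. There the share was 3.09, 2.85 and 2.89% in GF mice, 1.24, 0.973 and 1.41% in SPF mice and 1.18, 1.27 and 0.847% in CGF mice. GF shares lay above all others, by 1.73 percentage points over the SPF mean, with an exact permutation p = 0.0214 over the 3 groups, 0.133 adjusted. Thinning the libraries, which left median OPC UMIs of 1095.5 to 1410, lowered the GF shares to 1.87, 1.64 and 1.9% and left the SPF mice at 1.05, 0.784 and 1.18%, so the difference shrank to 0.795. For OPC without any other-type UMI it was 0.173. The astrocytes and mature oligodendrocytes chosen by like rules were more numerous in the GF PFC as well, with 273 to 288 astrocytes against 102 to 206 in the other PFC libraries and 267 to 340 mature oligodendrocytes against 54 to 87. As a share of these 3 cell types, OPC made up 28.8, 28.7 and 29.4% in GF, 27.3, 26.2 and 38.4% in SPF and 23.8, 34.6 and 19.1% in CGF mice, which overlap, with a GF minus SPF difference of -1.66 (p = 0.639 for all 3 groups, exact permutation). Since the rule asks for a number of UMIs, a shallow library passes fewer nuclei, and a share of nuclei gives no number of cells in the tissue.

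**Figure D2:**
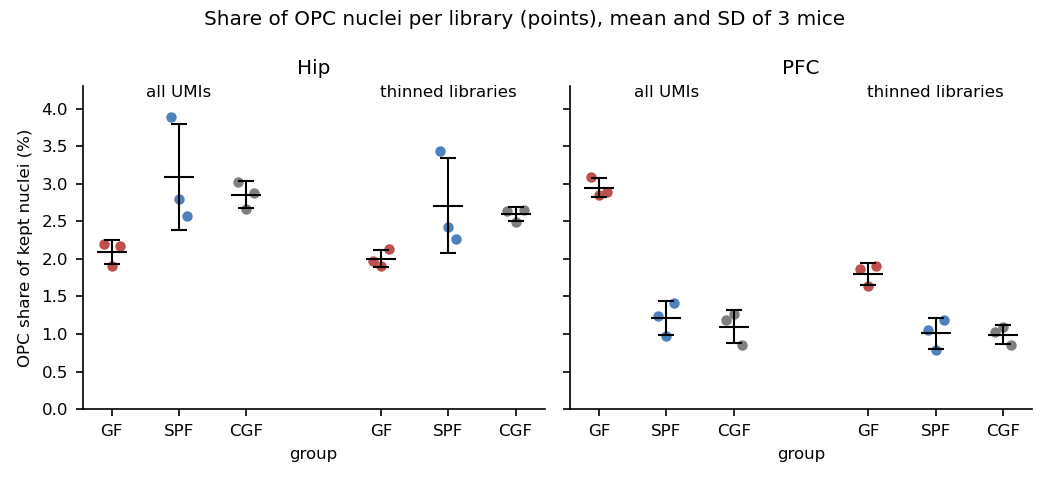
OPC share of kept nuclei in percent (y axis) for each library (points) with the mean and SD of 3 mice, by group, for all UMIs and for libraries thinned to a common mean of UMIs per nucleus, in the Hip and the PFC. GF shares are the lowest in the Hip and the highest in the PFC, and the PFC gap narrows after thinning.

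Within OPC, nuclei with at least 2 UMIs summed over 7 committed precursor genes were counted (Gpr17, Bmp4, Neu4, Enpp6, Bcas1, Tcf7l2 and Myrf). Nuclei were first thinned to 1000 UMIs, which leaves out nuclei with fewer. That left out at most 1 OPC nucleus of any Hip or GF PFC library, but in the PFC it kept 52 of 71, 52 of 67 and 76 of 104 OPC of SPF and 80 of 86, 79 of 92 and 48 of 64 of CGF mice, and the shares are of the OPC kept. In the Hip they made up 15.1, 17.5 and 18.7% of OPC in GF mice, 25.5, 28.6 and 19.5% in SPF mice and 25.8, 23.6 and 24.1% in CGF mice, against 0.5 to 3% of other nuclei. The other nuclei counted here were the 400 per library that met neither the OPC rule nor the like rules for astrocytes and mature oligodendrocytes. All 3 GF values of OPC were below all others, with a GF minus SPF difference of -7.45 percentage points. The exact permutation p over the 3 groups was 0.0571, 0.267 adjusted. At 1 UMI GF and SPF mice overlapped, with 48.6, 51.8 and 46% against 54.2, 58.3 and 44.8% (difference -3.62, exact permutation p = 0.118 over the 3 groups), and so they did at 2 UMIs without thinning, with 60.3, 66.5 and 62.6% against 72.4, 68.9 and 65.7% (difference -5.9, p = 0.136). Without thinning, 60.3 to 82.1% of OPC in the Hip libraries reached 2 UMIs, so the sum is no count of committed cells. Of the 7 genes, Gpr17, Neu4 and Bmp4 did not follow it singly, and detection of the others was not counted gene by gene. Thinned Gpr17 alone was detected in 5.03, 7.83 and 13.9% of GF Hip OPC against 4.43, 4.37 and 2.38% for SPF, while Neu4 and Bmp4 overlapped. PFC values of the summed genes overlapped, with 17.4 to 22.9% in GF mice, 11.5 to 25% for SPF and 20 to 31.2% for CGF (exact permutation p = 0.364). Asking for only 1 UMI gave 46.9 to 48.6% of the PFC OPC kept in GF, 34.6 to 46.2% for SPF and 53.2 to 56.3% for CGF, with no overlap between any 2 groups (exact permutation p = 0.00357 over the 3 groups, 0.0286 adjusted), against 1.75 to 7.5% of other nuclei. Nuclei with at least 2 UMIs of 18 cell cycle genes were rare, at most 8.86% of OPC in any library, with exact permutation p = 0.214 in the Hip and 0.9 in the PFC. Asking for only 1 UMI gave 8.94, 7.23 and 11.8% in GF Hip against 4.06, 1.46 and 4.76% in SPF and 3.09, 4.72 and 5.17% in CGF Hip, which do not overlap (exact permutation p = 0.0214, 0.171 adjusted). Other nuclei of the Hip with at least 1 such UMI made up 3 to 6% for GF mice, above the 1 to 2.75% for SPF mice and overlapping the 2.5 to 3.5% for CGF mice.

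Gene expression was compared on UMIs summed over the OPC of each library, as CPM, and tested across all genes with edgeR's quasi-likelihood test, with a gene called at a Benjamini-Hochberg adjusted p below 0.05. In Hip OPC, GF differed from SPF mice in 1967 of 10706 genes tested, which is 18.4%, with 1151 (10.8%) higher and 816 (7.62%) lower in GF mice. In 36.0% of genes no GF mouse fell within the SPF range and no SPF mouse within the GF range. DESeq2 called 1086 genes. OPC without any other-type UMI gave 417 of 4802, 311 higher and 106 lower, and no filter on low counts gave 1116 higher and 1104 lower of 20894. Without mouse GF 6, GF 7 or SPF 30 the count was 1060, 1269 or 1021. The lineage transcription factors moved in both directions, with 4 higher and 4 lower of 24 tested and a median log2 difference of 0.1, against -0.01 for all genes.

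Olig1, which maintains the oligodendrocyte lineage (chr16:91269772-91271933, mm10), stood at 94.1, 122 and 98.7 CPM in GF, 36.8, 39.4 and 48.6 CPM in SPF and 45.9, 39.7 and 53.2 CPM in CGF mice. Its GF values lay above all others without overlap, with a log2 difference of 1.32 ± 0.18 (SE) from SPF mice (n = 3 per group, edgeR adjusted p = 0.000244). Sox10, the factor that switches on myelin genes with Olig2, stood at 306, 395 and 301 CPM in GF, 172, 241 and 127 CPM in SPF and 171, 160 and 152 CPM in CGF mice, again without overlap (log2 0.9 ± 0.18, adjusted p = 0.00328). Sox8, its close relative, was higher too, at 146, 198 and 155 CPM in GF against 56, 108 and 51.2 CPM in SPF mice (log2 1.25). Hes5, a Notch target that holds back differentiation, was the fourth, though its GF mice ranged widely, from 22.9 to 88.5 CPM, against 7.38 to 19.1 CPM in SPF mice (log2 2.07, adjusted p = 0.00396). Among the lower genes, Sox6, which keeps precursors immature, stood at 957, 944 and 1020 CPM in GF, 1480, 1890 and 1230 CPM in SPF and 2000, 1760 and 1540 CPM in CGF mice (log2 -0.65 ± 0.15, adjusted p = 0.00666). Olig2 stood at 44.5, 51 and 48.7 CPM in GF against 44.2, 41.8 and 27.8 CPM in SPF mice and was not called (log2 0.34 ± 0.22).

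Of the 20 matrix and surface genes tested, 2 were higher and 4 lower in GF mice, with a median log2 difference of -0.2. Cspg5, a brain proteoglycan, stood at 681, 684 and 797 CPM in GF against 420, 585 and 384 CPM in SPF mice (log2 0.64, adjusted p = 0.00786). The other higher gene was Gpr17, a receptor of the committed stage, with 64.8, 72 and 87.7 CPM in GF, 32.4, 63.9 and 27.8 CPM in SPF and 62.2, 54.9 and 62.8 CPM in CGF mice (log2 0.92, adjusted p = 0.0151). Here the CGF mice lay between the GF mice and the lower 2 SPF mice. Tnr, which encodes tenascin-R, was lower, at 2680, 2540 and 2750 CPM in GF against 3250, 4290 and 3150 CPM in SPF and 4150, 4300 and 3840 CPM in CGF mice (log2 -0.42, adjusted p = 0.0303). The adhesion molecule Dscam (log2 -0.54) and the matrix gene Tnc (log2 -1.25) were lower too. Vcan (log2 -0.15 ± 0.16), Ptprz1 (-0.22 ± 0.13) and Megf11 (-0.42 ± 0.15, adjusted p = 0.0544) did not pass.

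A longer list of committed precursor genes, which includes the 7 summed above, was called in both directions. Of 11 tested, 2 were higher and 2 lower, with a median of -0.16. Lims2 joined Gpr17 among the higher, with 34.3, 39 and 39 CPM in GF against 19.1, 22.1 and 15.6 CPM in SPF mice, whereas Itpr2, a calcium release channel of differentiating cells, was lower by a log2 of 0.51 and Bcas1, a marker of early myelinating cells, by 0.46. Neu4 (log2 0.15) and Bmp4 (log2 0.85 ± 0.5, on 5.2 to 24 CPM) were not called. Of 13 myelin genes, 1 was higher and 2 lower. None of the 7 cell cycle genes tested was called by edgeR; Mki67 stood at 16.5, 10.5 and 14.6 CPM in GF against 9.57, 6.15 and 10.4 CPM in SPF mice (log2 0.64 ± 0.37).

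Receptors of neurotransmitters were called lower in GF mice wherever they were called. Of 23 glutamate receptor subunits 8 were lower and 0 higher (median -0.39), and of 12 GABA-A receptor subunits 4 were lower and 0 higher (median -0.38). Gabra2 stood at 164, 138 and 169 CPM in GF, 345, 251 and 306 CPM in SPF and 334, 313 and 351 CPM in CGF mice (log2 -0.94 ± 0.15, adjusted p = 0.000556). No GF mouse overlapped with the others. Grm7, a presynaptic metabotropic receptor, stood at 798, 795 and 849 CPM in GF against 1680, 922 and 1330 CPM in SPF mice (log2 -0.69), and the AMPA receptor subunits Gria3 (log2 -0.49) and Gria4 (log2 -0.54) were lower as well. In OPC without any other-type UMI, 1 of 20 glutamate and 2 of 11 GABA-A receptor subunits were called, all lower, where 2.21% of all genes tested were lower, with medians of -0.55 and -0.75 against -0.02 over all genes.

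Growth factor and guidance receptors were called in both directions, 3 higher and 10 lower of 36 (median -0.34). Gpr37l1, a glial receptor, stood at 81.4, 107 and 95 CPM in GF, 28.7, 48 and 39 CPM in SPF and 50.7, 53 and 49.3 CPM in CGF mice, with GF values above all others (log2 1.32 ± 0.19, adjusted p = 0.000343). Fgfr2, a fibroblast growth factor receptor, was higher by a log2 of 0.75. The axon guidance receptors Robo1 and Robo2 were lower, Robo2 with 202, 156 and 197 CPM in GF against 387, 287 and 309 CPM in SPF mice (log2 -0.82 ± 0.15, adjusted p = 0.00136). Of 25 ion channel genes 1 was higher and 13 lower (median -0.43), among them Kcnd3, a potassium channel of precursors (log2 -0.67), Cacna1e (log2 -0.6) and Ano4 (log2 -0.68). Of 29 adhesion and synapse organiser genes 12 were lower and 0 higher (median -0.41). Opcml, a cell adhesion molecule, stood at 3960, 3590 and 3970 CPM in GF, 6690, 6520 and 6280 CPM in SPF and 6550, 6830 and 6400 CPM in CGF mice (log2 -0.76 ± 0.11, adjusted p = 0.000301), and the neurexin gene Nrxn3 was lower by a log2 of 0.73. In the other nuclei Opcml and Nrxn3 had log2 ratios of -0.65 and -0.72.

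**Figure D3:**
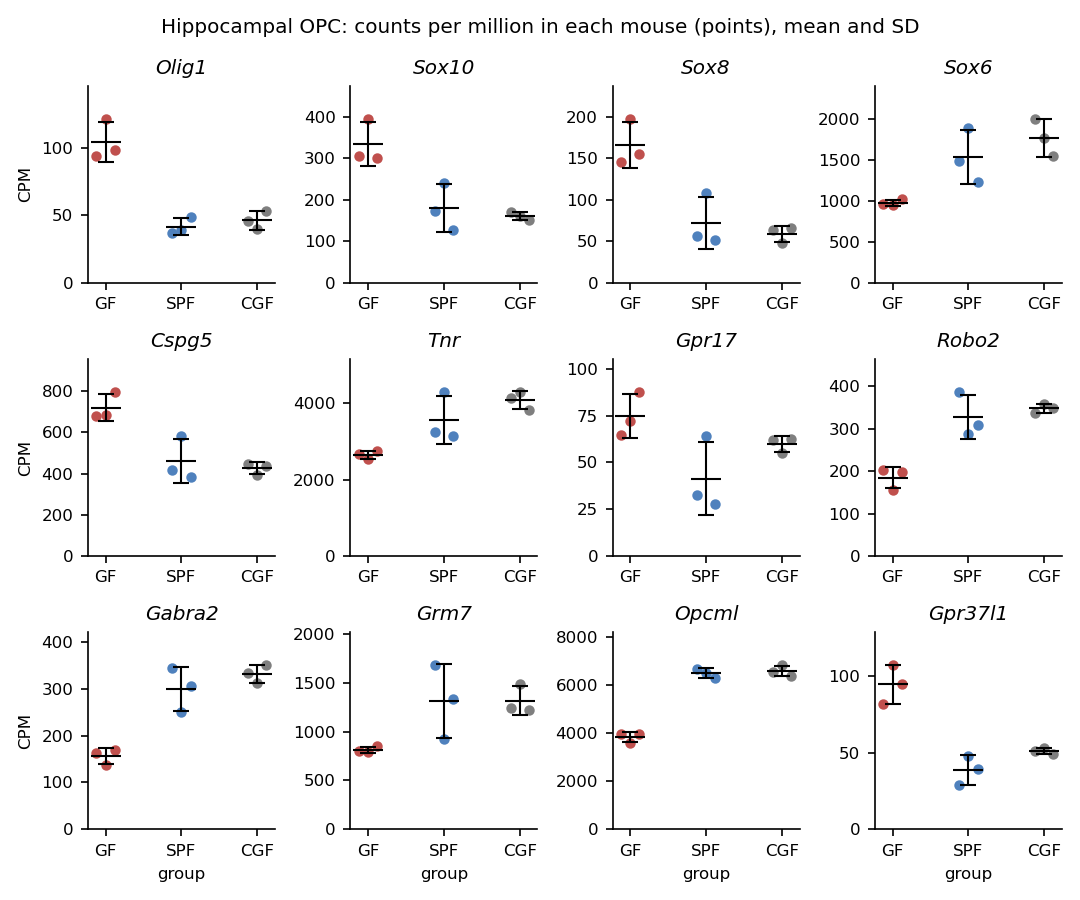
CPM of 12 genes in hippocampal OPC (y axis, from 0) for each mouse (points) with the mean and SD of 3 mice, by group. Olig1, Sox10 and Sox8 are highest in GF mice and Sox6, Tnr, Gabra2 and Opcml lowest, and CGF values lie near SPF values in these genes.

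Genes of general cell state moved with the libraries. In Hip OPC, 48 of 79 oxidative phosphorylation genes and 33 of 49 ribosomal protein genes were higher in GF mice and 0 lower, and 10 of 18 immediate early and heat shock genes were higher (median 0.63), with Junb at 52.1, 67.5 and 63.3 CPM in GF against 19.1, 8.61 and 12.1 CPM in SPF mice. All 6 ribosomal RNA-linked transcripts were lower. Junb had a mean of 62.2 CPM in the other nuclei of GF and 17.8 CPM in those of SPF libraries, and Gm42418 had a log2 ratio of -2.09 there against -2.08 in OPC. Called genes also differed in length: genes higher in GF OPC spanned a median of 9.88 kb, genes lower 130 kb and all tested genes 33.9 kb, and across genes, which are not replicates, the log2 difference fell with span (Spearman's rho -0.53). The part of gene span, depth or nuclear RNA content in these differences was not tested.

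**Figure D4:**
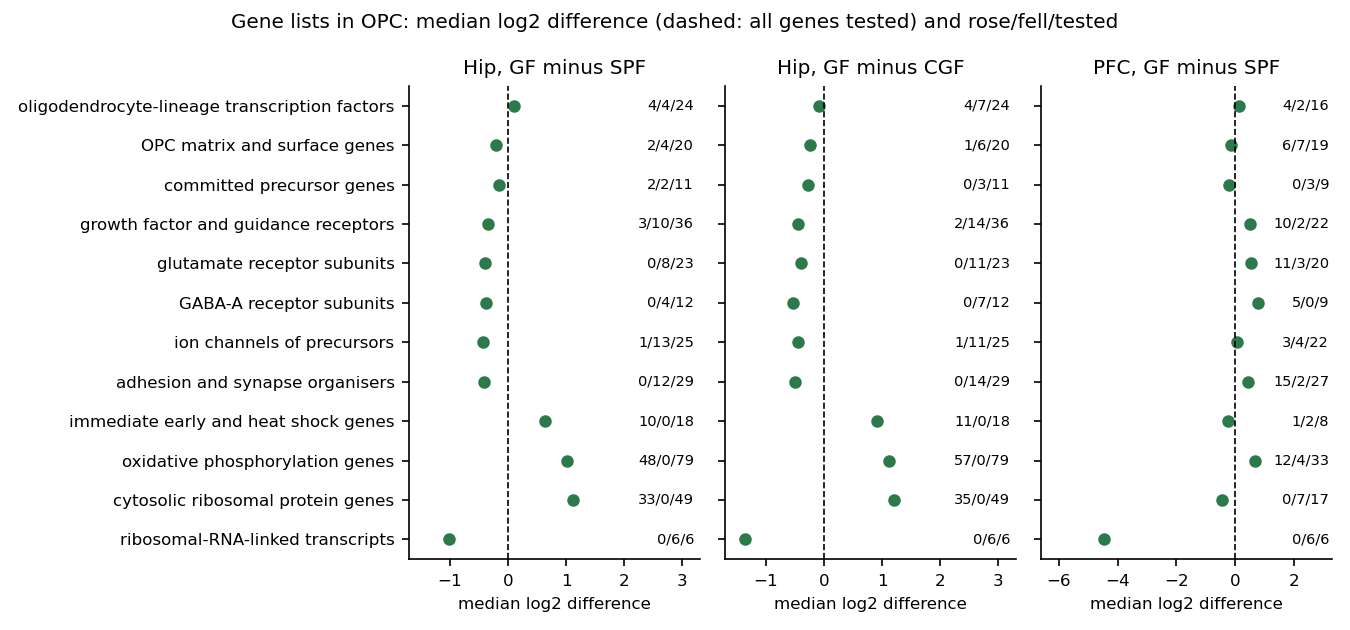
Median log2 difference of 12 gene lists in OPC (x axis) with the median of all genes tested (dashed line), for GF minus SPF and GF minus CGF in the Hip and GF minus SPF in the PFC; numbers at the right give the genes higher in GF, lower in GF and tested. Receptor, channel and adhesion lists lie below the line in the Hip, while glutamate, GABA-A and adhesion lists lie above it in the PFC.

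Because so much was common to all nuclei, the GF minus SPF difference in OPC was tested against the same difference in the other nuclei of the same libraries. In the Hip this called 78 of 18956 genes (0.411%), 56 (0.295%) with a higher value in OPC and 22 (0.116%) with a lower one, and the log2 difference then had a Spearman's rho of 0.07 with gene span. The balance turned with the nuclei and the filter: OPC without any other-type UMI gave 16 higher and 29 lower, and no filter on low counts 33 and 99. DESeq2 called 20 higher and 9 lower, and 3 were called when the library was not kept as a block; leaving out SPF 31 raised the count to 188, and leaving out CGF 17, CGF 18 or CGF 19 to 128, 119 or 131. Olig1 and Sox10 were among the called genes. Set on 1 scale for both kinds of nuclei, Olig1 had 87.6, 111 and 91.2 CPM in GF OPC against 35.7, 37.3 and 46.6 CPM in SPF OPC, whereas the other nuclei had 7.88, 9.85 and 7.84 CPM in GF and 8.24, 7.26 and 12.3 CPM in SPF mice. GF and SPF values did not overlap in OPC and overlapped in the other nuclei, and the difference in OPC exceeded that in the other nuclei by a log2 of 1.4 ± 0.23 (edgeR adjusted p = 3.34e-05). Sox10 gave a log2 of 0.81 ± 0.15 (adjusted p = 0.000346). Set against single glial types, neither gene was called: Olig1 gave 0.06 against mature oligodendrocytes (adjusted p = 0.96) and 0.91 against astrocytes (0.549), and Sox10 0.26 (0.655) and 1.28 (0.84). Sox8 (log2 0.19), Sox6 (-0.01) and Vcan (0.36) were not called, and among the 12 GABA-A receptor subunits, 26 ion channels and 29 adhesion genes the count was 0, while 1 of 24 glutamate receptor subunits was called.

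In the PFC the same test called 450 of 17018 genes (2.64%), 408 (2.4%) higher and 42 (0.247%) lower in OPC. There the median over all genes was 0.41, so values have to be read against that shift, and the balance of higher and lower calls did not hold. DESeq2 called 23 higher and 58 lower, thinned libraries gave 7 and 22, and leaving out mouse SPF 30 gave 13 and 25. OPC without any other-type UMI gave 62 higher and 36 lower, and 22 and 3 were called when the library was not kept as a block. The count was 84 without GF 7, 99 without GF 5, 105 without SPF 32, 155 without CGF 18 and 276 without SPF 31. Chst9, a sulfotransferase, gave the largest difference of a gene above 100 CPM, with 236, 156 and 167 CPM in GF against 7.59, 14.4 and 15 CPM in SPF OPC of the PFC and 7.07 to 17.9 CPM in the other nuclei (log2 4.47 ± 0.41, edgeR adjusted p = 1.68e-23). The value was 4.83 against mature oligodendrocytes alone (adjusted p = 0.0372) and 1.61 against astrocytes alone (adjusted p = 0.62). The regions are separate libraries of the same mice. Leaving out the genes of the rule, 22 genes were called in both regions, which is 28.9% of the 76 Hip calls and 4.91% of the 448 PFC calls. In 18 of these 22 the sign was the same, 14 higher and 4 lower in OPC, and in 4 (Atp1b1, Thy1, Fstl4 and Nptx1) it was opposite. Of the 76 Hip calls, 53 had the same sign in the PFC, called there or not. Higher calls outnumbered lower ones in both regions, which by itself makes some signs agree. The 18 genes were singled out after their values were seen.

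Zbtb16, which encodes a zinc finger transcription factor (chr9:48654297-48836222, mm10), was one of the genes called higher in both regions. In the Hip its OPC level was 196, 203 and 209 CPM in GF, 92.9, 91 and 121 CPM in SPF and 85.2, 161 and 90.6 CPM in CGF mice, and in the PFC 202, 259 and 256 CPM in GF, 45.5, 36 and 94.7 CPM in SPF and 61.1, 162 and 45.2 CPM in CGF mice. GF OPC were above all other OPC in both regions. The other nuclei had 232 to 294 CPM in GF against 248 to 253 CPM in SPF Hip libraries, which overlap, and 180 to 214 CPM against 215 to 282 CPM in the PFC, where GF mice were the lower. The log2 difference between OPC and other nuclei was 0.96 ± 0.15 in the Hip (edgeR adjusted p = 3.04e-05) and 2.23 ± 0.26 in the PFC (adjusted p = 3.76e-14). Against mature oligodendrocytes alone the sign turned, to -1.02 in the Hip (adjusted p = 0.00919) and -0.17 in the PFC (0.929), and against astrocytes it was -0.38 (0.809) and 0.64 (0.538), so no excess in OPC was called over either glial type.

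Mertk, a receptor tyrosine kinase for the uptake of dead cells and debris, had 220, 195 and 208 CPM in GF against 102, 109 and 125 CPM in SPF OPC of the Hip, while the other nuclei had lower values in GF mice, 39.9 to 51.5 CPM against 68.9 to 81.4 CPM in SPF mice. Its log2 difference was 1.63 ± 0.15 in the Hip (adjusted p = 8.98e-15) and 1.12 ± 0.3 in the PFC. There OPC had 224, 303 and 214 CPM in GF against 30.3, 57.6 and 64.8 CPM in SPF mice, and the other nuclei were higher in GF mice too, at 65.2 to 73.1 CPM against 25.5 to 38.7 CPM. Inpp4b, a lipid phosphatase of phosphoinositide signalling, had 200, 218 and 210 CPM in GF and 194, 120 and 106 CPM in SPF OPC of the Hip. Its other nuclei had 143 to 152 CPM in GF and 204 to 259 CPM in SPF mice, and the log2 difference was 1.26 ± 0.15 in the Hip and 1.52 ± 0.25 in the PFC. Pik3r1, the regulatory subunit of phosphoinositide 3-kinase, gave 0.67 and 0.66. In the PFC its OPC levels, 250, 240 and 245 CPM in GF against 228, 245 and 184 CPM in SPF mice, overlapped. Its other nuclei there had 115 to 127 CPM in GF and 159 to 172 CPM in SPF mice. For Olig1 the PFC value was 1.15 ± 0.28, but the OPC levels themselves, 69.8, 101 and 89.8 CPM in GF against 68.3, 130 and 120 CPM in SPF mice, overlapped, and the other nuclei differed instead, with 6.57 to 7.64 CPM in GF and 18.8 to 21.5 CPM in SPF mice. Gpr37l1 gave log2 values of 1.12 ± 0.2 in the Hip and 1.35 ± 0.3 in the PFC, but against astrocytes alone the sign turned, to -0.44 (adjusted p = 0.696) and -0.14 (0.928).

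The 4 genes with lower values in GF OPC included S100a3, Matn4 and Snx25. S100a3, a calcium-binding protein of the S100 family (chr3:90560578-90602702, mm10), had 9.47, 9.59 and 10.1 CPM in GF, 47.2, 105 and 48.3 CPM in SPF and 27.8, 40.5 and 12.1 CPM in CGF OPC of the Hip, with under 0.7 CPM in the other nuclei of every Hip library. All GF mice lay below all others. In the PFC it had 6.89, 2.01 and 5.53 CPM in GF against 45.5, 14.4 and 34.9 CPM in SPF mice, and the log2 differences were -2.71 ± 0.55 and -2.74 ± 0.77. Snx25, a sorting nexin, had 116, 156 and 114 CPM in GF against 233, 265 and 233 CPM in SPF OPC of the Hip and 96.5, 112 and 111 CPM against 273, 166 and 244 CPM in the PFC. Matn4, which encodes the matrix protein matrilin-4, differed little in the Hip (138, 160 and 146 CPM in GF, 177, 210 and 171 CPM in SPF mice) and more in the PFC (126, 176 and 139 CPM against 554, 425 and 444 CPM).

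Other genes of the 18 were Zfp36l1, Ampd3, Col11a1, Wdr17, Stk32a, Ankrd44, Htr2c and Grik1, with log2 differences of 0.62 to 1.15 in the Hip. For Col11a1, Ankrd44, Stk32a, Grik1, Htr2c and Zfp36l1 the Hip OPC levels overlapped between GF and SPF mice or were lower in GF mice, and the other nuclei had higher values in SPF mice or ranged more widely. Col11a1, a fibrillar collagen, had 95.9, 74 and 82.2 CPM in GF and 137, 132 and 116 CPM in SPF OPC, against 17.4 to 18.6 CPM and 41.3 to 59.6 CPM in the other nuclei. DESeq2 called 11 of the 18 in the Hip, 3 in the PFC and 2 in both, Inpp4b and Zbtb16. OPC without any other-type UMI left 7 in the Hip, 2 in the PFC and 1 in both, Zbtb16. Thinned libraries left 15, 2 and 2, Snx25 and Zbtb16, and without the library as a block 2 were called in each region and 0 in both. Without mouse SPF 30 or without mouse SPF 32, 4 genes were called in both regions, Inpp4b, Zbtb16 and Snx25 each time, with Ampd3 or Matn4 as the other; without GF 5 it was 5 genes, without GF 7 it was 6, without CGF 18 it was 9, and leaving out any other mouse gave 12 to 18. The sign of all 18 was kept in both regions in each of these runs. The runs reuse the libraries in which the 18 were chosen by their sign, so a kept sign is no separate support.

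Set against the astrocytes alone (3792 nuclei chosen by a like rule), the test called 12 genes in the Hip (0.107%) and 110 in the PFC (1.86%), among them Mertk and Inpp4b in both regions, and Wdr17 in the PFC with the opposite sign (log2 -1.93, adjusted p = 0.000715). Without being called, Col11a1, Gpr37l1, Grik1, Htr2c, Stk32a, Wdr17 and Zbtb16 had the opposite sign against astrocytes in the Hip, and Gpr37l1, Grik1 and Stk32a in the PFC. Against 5601 mature oligodendrocytes, 47 genes (0.401%) and 24 genes (0.48%) were called. In the Hip these included Gpr37l1, Matn4, Htr2c and Inpp4b with the sign they had against all other nuclei and Zbtb16 with the opposite one, and in the PFC 0 of the 18.

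**Figure D5:**
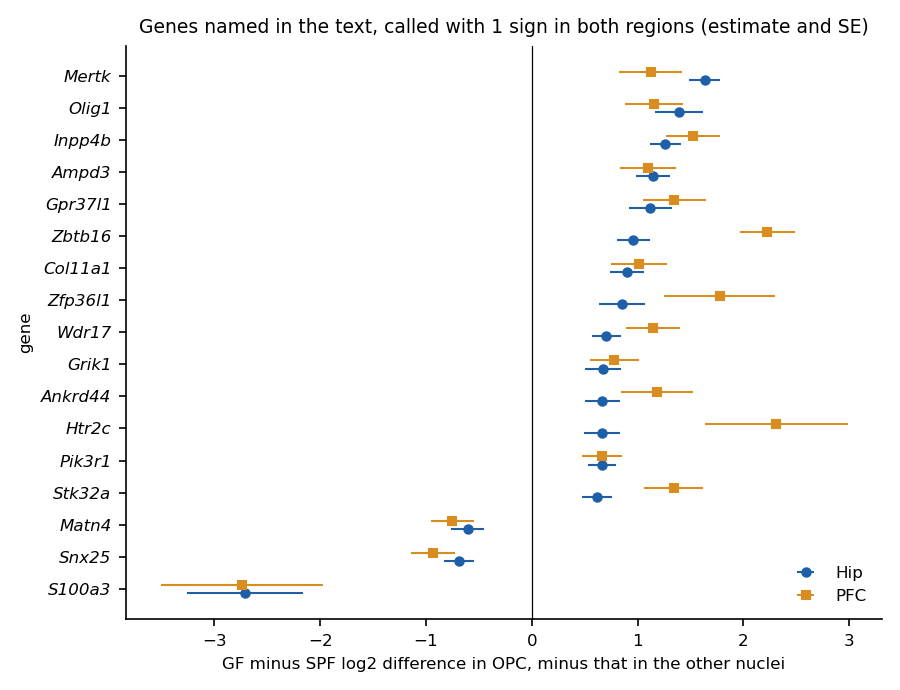
GF minus SPF log2 difference in OPC minus the same difference in the other nuclei (x axis, estimate with SE) for 17 of the 18 genes called with 1 sign in both regions, in the Hip (circles) and the PFC (squares). S100a3 lies farthest to the left in the Hip and Mertk, Olig1 and Inpp4b farthest to the right.

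OPC of CGF mice were compared with those of both other groups. In Hip OPC, GF differed from CGF mice in 2393 of 10706 genes (22.4%), 1326 (12.4%) higher and 1067 (9.97%) lower, while CGF differed from SPF mice in 3 genes (0.028%). Without mouse GF 6 the former count was 1549, and without SPF 31 or SPF 32 the latter was 10 or 6. Between GF and CGF mice the balance turned without a filter on low counts, with 1236 higher and 1452 lower of 20894. OPC without any other-type UMI gave 451 and 190 of 4802. The count between CGF and SPF mice was 11, 9 higher and 2 lower, when nuclei of high UMI count were left out, and 80 of 20894, 56 higher and 24 lower, without a filter on low counts. Both comparisons with GF use the same GF libraries, so their resemblance is not independent. Olig1 had a log2 GF minus CGF difference of 1.17 ± 0.18 (edgeR adjusted p = 0.000305), Sox10 of 1.05, Sox8 of 1.49 and Sox6 of -0.86. Of 36 growth factor and guidance receptors 2 were higher and 14 lower in GF mice, of 23 glutamate receptor subunits 0 and 11, of 12 GABA-A receptor subunits 0 and 7, and of 29 adhesion genes 0 and 14. Gabra2 differed by a log2 of -1.08, Robo2 by -0.91 and Opcml by -0.78.

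The 3 genes that separated CGF from SPF mice in Hip OPC were all higher in CGF mice. Mid1, an X-linked ubiquitin ligase, stood at 213, 441 and 426 CPM in CGF, 33.1, 46.7 and 52 CPM in SPF and 228, 120 and 188 CPM in GF mice (log2 3.05, adjusted p = 2.1e-05). Lmntd1 stood at 29.6, 31.2 and 15.5 CPM in CGF against 0.736, 4.92 and 0 CPM in SPF mice, and Adam18 at 46.9, 37.9 and 44.5 CPM against 7.36, 12.3 and 13 CPM. For Adam18 the GF mice, at 24 to 29.2 CPM, lay between both groups, whereas for Mid1 they overlapped with CGF mice. In the other nuclei of the Hip, Mid1 stood at 257, 498 and 435 CPM in CGF and 43 to 67.3 CPM in SPF mice. At an unadjusted p below 0.05 there were 844 genes, and DESeq2 called 6. None of the lists had a called gene between CGF and SPF mice in either region, though without a filter on low counts 4 of 13 mitochondrial genome genes were lower and 3 of 9 pericyte and smooth muscle markers higher in CGF OPC of the Hip, and some other lists had 1 called gene each in the Hip or the PFC.

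In PFC OPC, GF differed from SPF mice in 1498 of 4471 genes (33.5%), 729 (16.3%) higher and 769 (17.2%) lower, and from CGF mice in 1531 (34.2%). The share of genes without overlap between GF and SPF mice was 46.7%. With thinned libraries or without nuclei of high UMI count the GF minus SPF count was 845 and 998, and 613 in OPC without other-type UMIs. Without a filter on low counts 1447 genes were higher and 762 lower in GF than in SPF mice, of 19865. Group, depth and Gm42418 changed together there: Gm42418 stood at 301, 226 and 296 CPM in GF against 23900, 25100 and 38400 CPM in SPF OPC, and its log2 difference of -6.73 in OPC was -6.48 in the other nuclei. All 12 mitochondrial genome genes tested were lower in GF mice.

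Of 19 matrix and surface genes 6 were higher and 7 lower in GF OPC of the PFC. Vcan stood at 759, 888 and 635 CPM in GF, 2380, 1820 and 1840 CPM in SPF and 1670, 2650 and 1630 CPM in CGF mice, without overlap between GF and the others (log2 -1.4 ± 0.18, adjusted p = 4.78e-07), and the ratio in other nuclei was -1.69. Bcan, which encodes brevican, stood at 217, 251 and 189 CPM in GF against 938, 895 and 421 CPM in SPF mice (log2 -1.74). Brinp3 (log2 1.16) and Cspg5 (0.59) were higher, the latter in the same direction as in the Hip. Sox10 stood at 366, 405 and 265 CPM in GF against 165, 117 and 117 CPM in SPF mice, higher in each GF mouse as in the Hip (log2 1.4 ± 0.25, adjusted p = 6.92e-05), but its difference from the other nuclei did not pass (0.65 ± 0.29, adjusted p = 0.248). Sox8 was higher (log2 1.52) and Sox6 lower (-0.55), and Olig1 was not called (-0.46 ± 0.29). Of 9 committed precursor genes 3 were lower, among them Itpr2 (log2 -1.22) and Tns3 (-0.93), and 0 higher.

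Neurotransmitter receptors were mostly higher in GF PFC OPC, with 11 of 20 glutamate receptor subunits higher and 3 lower (median 0.54), and 5 of 9 GABA-A receptor subunits higher and 0 lower (median 0.77). Gabrb2 stood at 305, 374 and 403 CPM in GF against 103, 185 and 162 CPM in SPF mice (log2 1.25 ± 0.22, adjusted p = 5.8e-05). Of 22 growth factor and guidance receptors 10 were higher and 2 lower, with Fgfr2 at 737, 605 and 556 CPM in GF against 144, 146 and 123 CPM in SPF mice (log2 2.21), and of 27 adhesion genes 15 were higher and 2 lower. However, 8 of 12 neuron markers were higher too, such as Syt1 (log2 0.83) and Meg3 (0.74). When OPC with more than 2 times the median UMIs were left out, Syt1 became -0.15 and Meg3 -0.11, the glutamate receptors 6 higher and 4 lower of 19 (median -0.32), and the GABA-A receptors 1 higher of 7, while 11 of 26 adhesion genes were still higher and 2 lower. Over all 3071 genes tested in those nuclei 15.5% were higher and 17% lower. In OPC without any other-type UMI the glutamate receptors gave 5 higher and 5 lower of 19 (median -0.01), where 12.8% of all genes were higher and 13.1% lower. The balance of higher and lower receptor genes in the PFC thus changed with the nuclei that were counted.

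Between CGF and SPF mice, PFC OPC differed in 7 genes (0.157%), with 387 at an unadjusted p below 0.05 and 1 by DESeq2, and with 1 to 9 when a mouse was left out. Sim2, a transcription factor, stood at 134, 144 and 223 CPM in CGF OPC and at 0 in GF and SPF OPC of the PFC. Gab3, Shisa9 and Cdk8 were higher in CGF mice by a log2 of 3.03, 1.17 and 0.87, and Psd and Kcnip3 lower by 1.63 and 1.

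Finally, OPC of both regions were compared in the GF mice, whose libraries differed less in depth between the regions than those of the other groups, with 49067853 to 56240654 UMIs in the Hip and 59126586 to 71463928 in the PFC. Of 10954 genes tested, 427 (3.9%) differed, 180 (1.64%) higher and 247 (2.25%) lower in the Hip. Because both regions came from the same mice, a fit with the mouse as a block was run, and it called 675 (6.16%). Gene values given for the regions are from the fit without the block. Without mouse GF 5, GF 6 or GF 7 the count without the block was 227, 163 or 146. Prox1, a transcription factor expressed in the hippocampal dentate gyrus and in the oligodendrocyte lineage, stood at 67.1, 72.2 and 56.5 CPM in the Hip and 21.1, 19.2 and 20 CPM in the PFC (log2 1.68 ± 0.26, edgeR adjusted p = 0.000186). Tenm3, a teneurin of synaptic partner choice, stood at 363, 346 and 372 CPM against 113, 116 and 98 CPM (log2 1.73), and Grm3, a metabotropic glutamate receptor, at 94.7, 98.3 and 114 CPM against 303, 251 and 328 CPM (log2 -1.52 ± 0.22, adjusted p = 0.000111). The regions did not overlap in these 3 genes, as was so in 21.9% of all genes tested. In OPC without any other-type UMI, Tenm3 turned to a log2 of -0.34 while Prox1 gave 1.61 and Grm3 -1.49, none of them called. There 7 genes differed between the regions, and with thinned libraries 80.

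Myelin genes were higher in the Hip where they were called, 3 of 12, among them Cldn11 (log2 1.82) and Fa2h (0.8), along with the differentiation factor St18 (1.28). Without mouse GF 6 Cldn11 was not called (log2 1.32, adjusted p = 0.24), and without other-type UMIs Fa2h was not (0.13). Myelin genes were also more abundant in the other nuclei of the Hip, where their sum was 546 to 718 CPM in GF mice against 349 to 426 CPM in the PFC, and the part of such RNA in the OPC values was not tested. Robo2 (log2 -1.02), Gabrg3 (-0.77) and Nrxn3 (-0.69) were lower and Gria1 (0.74), Gabra5 (1.26) and the semaphorin gene Sema5a (0.79) higher in the Hip. Exph5 (log2 -5.21), Scube1 (-3.23), Cpne9 (-2.88), Cpne5 (-2.53) and Lamp5 (-2.51) had the largest falls. These are among called genes with a mean of 20 CPM or more and no overlap, Gm and Rik models left out. OPC sums hold RNA of neuron marker genes, and OPC were not tested against other nuclei between the regions. The part of such RNA in these regional values was not tested. Ttr, at 2.63, 3500 and 787 CPM in the Hip and 0 in the PFC, was as variable in the other nuclei. Olig1, Sox10 and Ptprz1 did not pass, with log2 differences of 0.29, 0.25 and 0.15.

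The GF minus SPF difference itself differed between the Hip and the PFC in 1499 of 10954 genes (13.7%), 669 (6.11%) higher and 830 (7.58%) lower in the Hip, and in 840 without mouse SPF 30. The balance turned with the tool, since DESeq2 called 777 higher and 612 lower, and without a filter on low counts it was 500 and 1162. Thinned libraries gave 289 higher and 261 lower of 6155 genes, and OPC without other-type UMIs 150 and 181 of 5400. With the mouse as a block 1615 genes were called, 689 higher and 926 lower. Olig1 gave a log2 of 1.77, Matn4 1.55 and Bcan 1.94. Robo2 (log2 -2.07), Gabrb2 (-1.71), Cadm2 (-1.54) and Gria3 (-1.25) had lower values in the Hip. By list, 0 of 12 GABA-A receptor subunits were higher and 8 lower, and 1 and 15 of 29 adhesion genes. In this test the SPF libraries of the Hip and the PFC differ in depth as well as in region, and the parts of depth and region cannot be told apart.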

How the data were processed

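Nuclei of the Hip and PFC of 9 mice were captured with 10x Genomics 3′ chemistry and sequenced on a NovaSeq instrument. Per the labels and the study's methods the authors trimmed reads with Fastp, aligned them to mm10 with Cell Ranger and deposited 1 matrix of raw UMI counts per library, without replicates pooled. The sources differ on the kit and Cell Ranger versions, which are therefore not given. Processing tools in the submitters' notes were CASAVA 1.8 and Cell Ranger.

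Nuclei were kept at 200 or more genes and 10% or fewer mitochondrial UMIs, which removed 1924 of 139924 barcodes. OPC were chosen by the rule given in the report, with 15 genes that stay in the tests across all genes but are given as no result. Their depth per library was 110322 to 1536793 UMIs, so counts of few UMIs carry counting error besides the spread between mice. UMI counts were summed per library and tested with edgeR 4.0.16 (quasi-likelihood, TMM scaling, filterByExpr, R 4.3.3) with all 3 groups of a region in 1 fit. Standard errors are the log2 difference divided by the square root of F. OPC were tested against the other nuclei with the library as a block, and regions in 1 fit of all 18 libraries without the mouse as a block. Shares were compared by exact two-sided permutation over mice (1680 arrangements of 3 groups, smallest p 0.00357), adjusted over 8 tests. DESeq2 1.42.0, thinned libraries (for shares also all 18 to 1 depth, chosen after seeing the data), other filters, OPC without other-type UMIs, and each mouse left out were alternatives. Libraries were thinned by binomial draws to the lowest mean UMIs per nucleus of a region, and nuclei to 1000 UMIs by draws without replacement, leaving out nuclei with fewer. Doublets were not called; OPC with more than 2 times their library's median UMIs were left out in an alternative. Tests were checked on simulated counts.

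Both regions of a mouse share its number, since same-numbered libraries came from 1 animal. The main fits of the regions did not use this pairing, and the mouse as a block was an alternative. The correlation of same-mouse deviations was 0.0165 to 0.116, and that between different mice of a group was -0.0789 to 0.0486, which overlap. Members, 24 gene lists and tests were chosen with earlier results of these data known. Genes named were those of a fixed core list, up to 4 of each list with the smallest p, and up to 5 with the largest rise and fall at a mean of 20 CPM or more without overlap, of which the report gives some; exceptions are stated, and the results of a few of these genes are not reported here. One list gene had no row. Gene positions and spans are from GENCODE on mm10. Reads of the 274 opposite-strand models and of their partners were not told apart by strand here.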

Additional observations from a re-analysis of the deposited data

Results flagged for a closer look

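The GF minus SPF difference of OPC was tested against other nuclei and between regions, and these tests of a difference between differences put the following results forward. In the Hip 78 genes, in the PFC 450 genes, and between the regions 1499 genes passed edgeR's adjusted threshold.

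Between the regions, the log2 difference in the Hip minus that in the PFC was 1.94 for Bcan, 1.55 for Matn4 and 1.77 for Olig1. It was -1.54 for Cadm2, -1.71 for Gabrb2, -1.25 for Gria3 and -2.07 for Robo2.

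Against the other nuclei of the Hip, the log2 difference in OPC was higher by 1.15 for Ampd3, 0.67 for Ankrd44, 0.9 for Col11a1, 1.12 for Gpr37l1, 0.67 for Grik1, 0.67 for Htr2c, 1.26 for Inpp4b, 1.63 for Mertk, 1.4 for Olig1, 0.67 for Pik3r1, 0.81 for Sox10, 0.62 for Stk32a, 0.7 for Wdr17, 0.96 for Zbtb16 and 0.85 for Zfp36l1. It was -0.61 for Matn4, -2.71 for S100a3 and -0.69 for Snx25. Htr2c ranged from 55.6 to 201 CPM in GF and from 56.5 to 153 CPM in SPF OPC, which overlap. In the other nuclei it ranged from 70.9 to 389 CPM in GF and from 174 to 477 CPM in SPF mice.

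Against the other nuclei of the PFC, it was 1.1 for Ampd3, 1.18 for Ankrd44, 4.47 for Chst9, 1.02 for Col11a1, 1.35 for Gpr37l1, 0.78 for Grik1, 2.31 for Htr2c, 1.52 for Inpp4b, 1.12 for Mertk, 1.15 for Olig1, 0.66 for Pik3r1, 1.34 for Stk32a, 1.15 for Wdr17, 2.23 for Zbtb16 and 1.78 for Zfp36l1. It was -0.75 for Matn4, -3.78 for Mki67, -2.74 for S100a3 and -0.93 for Snx25. The Mki67 value rests on OPC levels of 15.2, 0 and 59.8 CPM in SPF mice against 10.3, 13.1 and 6.91 CPM in GF mice, which overlap. That of Htr2c rests on low SPF levels, 7.59, 0 and 9.97 CPM against 43.1, 44.2 and 34.6 CPM in GF OPC.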

How the results depend on the processing

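Depth and the number of nuclei set the limits: 110322 to 1536793 OPC UMIs per library, with the shallow libraries all in the SPF and CGF PFC. Counts of called genes were 1967 in the Hip for GF against SPF, 1086 by DESeq2 and 417 in OPC without other-type UMIs. For GF against CGF they were 1450 and 641, and for CGF against SPF 6 and 1, with 80 without a filter on low counts and 11 without nuclei of high UMI count. The test of Hip OPC against other nuclei gave 29 by DESeq2, 132 without a filter, 45 without other-type UMIs, 3 with no replicate block, 12 against astrocytes and 47 against mature oligodendrocytes. In the PFC, GF against SPF gave 613 without other-type UMIs, 845 thinned and 998 without nuclei of high UMI count. GF against CGF gave 2304 without a filter, 736 and 951 under the former pair, and CGF against SPF gave 1 by DESeq2, 13 without a filter, 3, 2 and 1. PFC OPC against other nuclei gave 81 by DESeq2, 98 without other-type UMIs, 29 thinned, 25 with no replicate block, 110 against astrocytes and 24 against mature oligodendrocytes. For Hip against PFC in GF mice the count was 7 without other-type UMIs, 80 thinned and 675 with the replicate block, and for the difference between regions 331 and 550 under the first 2. With the mouse as a block the difference between regions gave 1615 genes, against 1499 without it. The causes of these changes were not tested. Fewer nuclei or UMIs entered the fits without other-type UMIs and after thinning, and the part of this was not tested either.

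Leaving out 1 mouse gave 1021 to 1942 and 1549 to 2580 genes in the Hip for GF against SPF and CGF, 2 to 10 for CGF against SPF and 63 to 188 against other nuclei. In the PFC it gave 1234 to 1650, 1234 to 1681, 1 to 9 and 38 to 499. CGF against SPF in the PFC gave 2, 1, 1, 4, 2 and 2 without CGF 17, CGF 18, CGF 19, GF 5, SPF 31 and SPF 32. Hip against PFC gave 146 to 502 and the difference between regions 840 to 1522. GF minus SPF shares ran from -1.25 to -0.589 percentage points in the Hip and from 1.62 to 1.84 in the PFC. For nuclei with at least 2 UMIs of the 7 committed precursor genes the difference ran from -9.96 to -5.4 and from 1.11 to 7.84. For those with at least 2 UMIs of the cell cycle genes it ran from 0.733 to 1.44 and from -1.98 to 1.31. The share of PFC OPC with UMIs of the 7 committed precursor genes gave a GF minus SPF difference of 7.18 at 1 UMI. It gave 38.6 at 2 UMIs without thinning. Over the 3 groups together the exact permutation p was 0.0286 adjusted in both. That of GF against SPF alone was 0.1 unadjusted, the smallest it can be. Without thinning, a PFC OPC nucleus had a median of 3130 to 3720 UMIs in GF and 1270 to 1590 in SPF and CGF mice. With nuclei thinned to 1000 UMIs the difference at 2 UMIs was 3.41. The part of depth in the 38.6 was not tested.

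Genes that turned sign included the following. Against astrocytes in the Hip these were Col11a1 at -0.28, Gpr37l1 at -0.44, Grik1 at -0.13, Htr2c at -1.07, Stk32a at -0.27, Wdr17 at -0.41 and Zbtb16 at -0.38, and against mature oligodendrocytes Wdr17 at -0.17 and Zbtb16 at -1.02. In the PFC these were Gpr37l1 at -0.14, Grik1 at -0.54, Stk32a at -0.89 and Wdr17 at -1.93 against astrocytes, and Col11a1 at -1.54, Stk32a at -1.59, Wdr17 at -0.41 and Zbtb16 at -0.17 against mature oligodendrocytes. Nptx1 in the Hip turned to 0.29 and 0.14 and Atp1b1 in the PFC to -0.13 and -0.46 against astrocytes and mature oligodendrocytes. Without other-type UMIs, Tenm3 at -0.34 turned in the comparison of regions, and Kcnip4 at -0.23, Meg3 at -0.090 and Syt1 at -0.18 in the PFC. Without nuclei of high UMI count the latter became -0.026, -0.11 and -0.15.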
